A study of Homo sapiens with 688 samples.

Results

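Volasertib (BI 6727), an inhibitor of polo-like kinase 1 (PLK1), was examined in U87 cells, an established line of human glioblastoma. Its members were the U87 wells whose drug label held 1 of 17 names of PLK1, Aurora kinase or mitotic kinesin inhibitors, and only volasertib matched, in 2 wells of 384 U87 wells and of 688 samples in the series. No Aurora or kinesin inhibitor was among the matched wells, so the results below concern treatment with this compound and not the whole class. Which of its targets lay behind a change was not tested. The series tested PLATE-Seq, in which polyadenylated RNA is captured in each well of a 96-well plate, tagged with a well barcode during reverse transcription and sequenced as 1 pooled library per plate.

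The volasertib wells stood on 2 plates, called A and B here, that shared a layout. Each plate held 92 compounds in 1 well each, 2 wells with the vehicle DMSO and 2 wells labelled UNTREATED. Volasertib was given at 1.328 µM for 24 h. According to the labels, every compound was dosed to leave 80% of the cells viable at 48 h. The labels and the study's methods differ on whether U87 wells were frozen before lysis, so that step is not settled here. Another 4 compounds of the same plates are set beside volasertib where they bear on its targets. They were GW 843682X at 1.0492 µM, another PLK1 inhibitor that the name rule did not match, the tubulin binders Vindesine sulphate at 0.023 µM and Plinabulin (NPI-2358) at 1.567 µM, and OTX015, an inhibitor of the BET bromodomain proteins, at 3.909 µM. All these doses differ from that of volasertib, so values are given side by side and no pair of compounds was tested against each other.

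PLK1 is a serine/threonine kinase of the late cell cycle. It drives mitotic entry, centrosome maturation, attachment of chromosomes to the spindle and cytokinesis, and cells in which it is blocked typically arrest in mitosis with high cyclin B. Volasertib is a dihydropteridinone that binds the ATP pocket of PLK1, and compounds of this class are also known to bind the acetyl-lysine pocket of BET bromodomains. BET inhibition is known for raising HEXIM1 and several histone genes and for lowering inflammatory cytokine genes.

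The total count was 960248 for the volasertib well on plate A and 717852 on plate B, against 672411 to 799631 in the 4 DMSO wells and 698605 to 1035594 in the 4 UNTREATED wells. Wells of both plates ranged from 17063 to 1537549 counts, and 7 wells of plate A and 6 of plate B, none of them used by name here, were under 0.5 times the median of their plate. Plates differed strongly, with 9.97% of the counts of plate A and 22.8% of those of plate B on the same 6 gene symbols, so each fit carried a plate term. Levels are given as CPM, the count scaled to a total of 1000000 per well, plate A first. The mesenchymal marker VIM was at 3004 and 1070 CPM and the adhesion receptor gene CD44 at 678 and 297 CPM with volasertib. The sum over the 5 U87 markers was 3959 and 1545 CPM with volasertib against 3044 to 3645 CPM in DMSO on plate A and 1626 to 1804 CPM on plate B. Single markers did not all hold their level. In the test against DMSO described below, 4 of the 5 had a log2 fold change below 0 and 1 above (median -0.61). Of them 1 was called higher and 1 lower, 40.0% beside 4.70% of all genes. Of 5 breast epithelial markers, taken for the BT20 line of the study, EPCAM, KRT18 and CDH1 had no count in either volasertib well, KRT8 was at 3.12 and 0 CPM, and KRT5 was at 22.9 and 41.8 CPM against 10.0 to 26.9 CPM in DMSO.

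Promoter sequences (RefSeq, GRCh38.p14, from 250 bases before to 50 bases after the annotated start) are shown first for genes on which the results turn, namely the drug target, the histone genes and HEXIM1 named as markers of BET inhibition, and E2F1, the transcription factor of the S phase program. Capitals mark every match, on either strand, to 5 elements. These are the cell cycle homology element (TTTGAA or TTCGAA), the E2F element (TTTCCCGC, TTTCGCGC, TTTGCCGC or TTTGGCGC), the histone octamer (ATTTGCAT), the TATA box (TATAAA) and the AAACACA element of H1 histone promoters. Adjoining or overlapping matches run together, as with a TATA box on both strands of HIST1H2BK. For HIST1H2BK and HIST1H2BD, which have 2 annotated starts each, the first window is given.
PLK1, chr16:23678639-23678938, plus strand: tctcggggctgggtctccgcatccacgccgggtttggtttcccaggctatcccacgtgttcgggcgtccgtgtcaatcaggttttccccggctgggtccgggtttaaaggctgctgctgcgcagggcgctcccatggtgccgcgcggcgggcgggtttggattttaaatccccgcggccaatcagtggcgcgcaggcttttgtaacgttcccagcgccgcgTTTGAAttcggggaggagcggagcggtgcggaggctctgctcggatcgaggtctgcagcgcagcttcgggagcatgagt
HIST1H1C (H1-2), chr6:26056421-26056720, minus strand: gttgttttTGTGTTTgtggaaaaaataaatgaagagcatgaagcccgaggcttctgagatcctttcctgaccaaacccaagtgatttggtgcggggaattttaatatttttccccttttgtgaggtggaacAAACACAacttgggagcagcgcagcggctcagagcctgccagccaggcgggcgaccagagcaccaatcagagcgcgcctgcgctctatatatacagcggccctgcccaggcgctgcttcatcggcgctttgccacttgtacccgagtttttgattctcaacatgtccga
HIST1H2BK (H2BC12), chr6:27146809-27147108, minus strand: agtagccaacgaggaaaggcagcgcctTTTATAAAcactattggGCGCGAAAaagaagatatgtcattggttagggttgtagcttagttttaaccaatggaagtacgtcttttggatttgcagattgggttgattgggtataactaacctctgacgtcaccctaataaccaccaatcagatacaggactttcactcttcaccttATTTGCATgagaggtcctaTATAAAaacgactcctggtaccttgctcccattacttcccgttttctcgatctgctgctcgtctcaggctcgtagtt
HIST2H2BE (H2BC21), chr1:149886633-149886932, minus strand: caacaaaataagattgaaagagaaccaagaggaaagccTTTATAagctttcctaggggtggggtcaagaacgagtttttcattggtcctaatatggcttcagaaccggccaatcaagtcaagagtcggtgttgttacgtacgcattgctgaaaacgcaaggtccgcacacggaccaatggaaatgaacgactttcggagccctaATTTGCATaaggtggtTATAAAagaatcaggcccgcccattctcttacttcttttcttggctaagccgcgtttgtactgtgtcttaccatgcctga
HIST1H2BD (H2BC5), chr6:26157871-26158170, plus strand: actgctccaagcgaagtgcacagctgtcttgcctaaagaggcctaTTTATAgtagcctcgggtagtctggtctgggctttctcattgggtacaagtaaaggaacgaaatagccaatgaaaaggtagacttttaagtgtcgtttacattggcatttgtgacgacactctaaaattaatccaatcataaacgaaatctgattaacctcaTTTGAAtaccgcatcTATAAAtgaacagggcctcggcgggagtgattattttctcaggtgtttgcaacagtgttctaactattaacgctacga
HEXIM1, chr17:45148225-45148524, plus strand: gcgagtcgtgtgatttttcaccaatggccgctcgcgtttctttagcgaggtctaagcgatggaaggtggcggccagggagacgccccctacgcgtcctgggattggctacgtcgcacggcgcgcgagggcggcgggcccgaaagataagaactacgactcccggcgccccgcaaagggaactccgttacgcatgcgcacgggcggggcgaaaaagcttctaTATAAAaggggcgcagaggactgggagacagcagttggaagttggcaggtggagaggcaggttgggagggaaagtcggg
E2F1, chr20:33686336-33686635, minus strand: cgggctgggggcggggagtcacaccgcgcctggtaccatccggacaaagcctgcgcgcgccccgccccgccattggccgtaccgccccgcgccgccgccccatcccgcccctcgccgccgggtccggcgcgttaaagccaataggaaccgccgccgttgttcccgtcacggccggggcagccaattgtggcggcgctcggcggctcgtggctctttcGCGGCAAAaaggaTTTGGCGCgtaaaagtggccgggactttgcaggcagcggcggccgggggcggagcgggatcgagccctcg
The octamer stood in the windows of HIST1H2BK and HIST2H2BE and in 2.19% of 27305 genes with a window. The cell cycle homology element stood in the windows of PLK1 and HIST1H2BD. It was in 60 of 84 mitotic genes with a window (71.4%) and in 19.5% of all genes. The E2F element was found at 2 places in the E2F1 window and also in the HIST1H2BK window. It was in 14 of 25 replication and S phase genes (56.0%) and in 3.99% of all genes. These are counts of letters and not of bound sites.

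The first question was what volasertib changed relative to vehicle. Volasertib raised 211 and lowered 204 of 8831 genes tested against the 4 DMSO wells, 4.70% of genes in all, 2.39% higher and 2.31% lower (edgeR quasi-likelihood test with a plate term, Benjamini-Hochberg adjusted p under 0.05). Every called gene moved the same way on both plates, but the calls were made from these same wells, which favors such agreement. Both volasertib wells lay above all 4 DMSO wells in 53.6% of the higher genes and below them in 84.3% of the lower genes, beside 4.14% and 11.3% of all genes. These positions use plain CPM, without the scaling of the fit. The gene MT2A alone took 7.15% and 17.2% of the counts of the volasertib wells and 1.92% to 3.90% in DMSO, which lowers the CPM of other genes. UNTREATED wells differed from DMSO wells in the same direction, called or not, at 73.9% of the higher and 55.9% of the lower genes. Both comparisons share the 4 DMSO wells, so some such agreement is built in. Over all genes, the median log2 fold change of UNTREATED against DMSO wells was 0.011. UNTREATED wells differed from DMSO wells at 95 genes by the same rule (1.08%, with 0.725% higher and 0.351% lower). Against the same DMSO wells GW 843682X changed 0.838% of genes (0.442% higher, 0.396% lower), Vindesine sulphate 2.32% (1.26% and 1.06%), Plinabulin 4.93% (2.71% and 2.22%) and OTX015 17.0% (8.03% and 8.98%). The calls rest on the plate term and on both wells. Without the plate term 14 genes were called. With only the plate B or only the plate A well of volasertib, the count fell to 1.73% and 1.49% of 8831. The labels do not say whether the plates came from separate cultures, so the p-values measure the spread between these wells, which may be technical.

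PLK1, the target of the compound, and CCNB1, the cyclin B partner of CDK1, did not change beyond the spread between wells. PLK1 (GRCh37 chr16:23688977-23701688) was at 25.0 CPM on plate A and 16.7 CPM on plate B with volasertib, against 31.1 and 35.4 CPM in DMSO on plate A and 25.3 and 16.3 CPM on plate B. Its log2 fold change was -0.18 ± 0.42 (SE, n = 2 against 4 wells, adjusted p = 0.885), with a 95% interval from -1.02 to 0.66, so a change of up to about that size was not detectable at this depth. CCNB1 (GRCh37 chr5:68462962-68474072) was at 206 and 149.1 CPM against 211, 242, 123.4 and 163.8 CPM in DMSO. Here the log2 fold change was 0.15 ± 0.20 (adjusted p = 0.780, 95% interval -0.26 to 0.56). The volasertib wells lay within the range of the DMSO wells of both plates for both genes. Within plate A, the volasertib well lay slightly below both DMSO wells for each gene, and within plate B it lay between them. Among the 92 compound wells, they ranked from the top at position 55 on plate A and 52 on plate B for PLK1, and at 49 and 19 for CCNB1. With Plinabulin, which blocks spindle assembly, CCNB1 was at 404 and 210 CPM and rose by 0.75 on the log2 scale (adjusted p = 0.0114).

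Mitotic genes as a group did not move one way with volasertib. Of 97 genes in 5 lists of mitotic kinases, cyclins and their regulators, kinesins, kinetochore and spindle genes, 90 were tested, 4 rose and 2 fell, a share of 6.67% beside 4.70% of all genes. Their median log2 fold change was 0.05, against -0.02 over all genes. Of 14 mitotic kinases tested none was called, and AURKA, which encodes Aurora kinase A, differed by 0.24 ± 0.18 on the log2 scale (adjusted p = 0.540), as CDK1, the kinase of mitotic entry, did by -0.53 ± 0.21 (adjusted p = 0.164). KIF20B, a cytokinesis kinesin, rose by 0.86 ± 0.18 (adjusted p = 0.00177), from 219 to 284 CPM in DMSO to 391.6 and 403 CPM. CENPE, the kinesin that carries chromosomes to the metaphase plate, rose by 1.13 ± 0.23 (adjusted p = 0.00226), with 381 and 160.2 CPM against 94.5, 228, 136.8 and 87.5 CPM. SGOL2, the shugoshin that protects centromeric cohesin, rose by 1.51 ± 0.31 (adjusted p = 9.37e-04). HMMR, a spindle assembly factor, rose by 0.99 ± 0.30 (adjusted p = 0.0434). Only KIF20B had both volasertib wells above all 4 DMSO wells, as did 4.14% of all genes. The calls of KIF20B, CENPE and SGOL2 were lost on leaving out 1 of the volasertib wells. That of HMMR was lost on leaving out either of them or either DMSO well of plate A, with UNTREATED wells as the control and with no filter on low counts, and that of CENPE in a fit of only volasertib and DMSO wells.

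The 2 mitotic genes that fell were ARHGAP11A, a RhoA regulator of the cleavage furrow, and MYBL2, the B-MYB factor that activates late cell cycle genes. ARHGAP11A was at 17.7 and 1.39 CPM against 22.3 to 49.6 CPM in DMSO (log2 fold change -1.72 ± 0.52, adjusted p = 0.0431). MYBL2 had 1 read in each volasertib well and 44 reads over the 4 DMSO wells (edgeR adjusted p = 0.0396). Its ratio of CPM was 0.0799 with an exact 95% counting interval from 0.00939 to 0.306. That interval pools the reads of each group and leaves out the spread between wells and plates, so it is too narrow. The calls of both were lost on leaving out either volasertib well. That of ARHGAP11A held in 4 of 14 alternatives and was also lost on leaving out any 1 DMSO well, with UNTREATED wells as the control, with both controls together and under voom. That of MYBL2 held in 7 of 13. At the doses used, the same 90 genes gave other counts with the compounds beside it. GW 843682X had 0 higher and 1 lower, Vindesine sulphate 9 higher and 0 lower, Plinabulin 21 higher and 0 lower, and OTX015 0 higher and 62 lower, with medians of -0.05, 0.17, 0.55 and -1.81. Over all genes GW 843682X lowered 0.396%, Vindesine sulphate raised 1.26%, Plinabulin raised 2.71% and OTX015 lowered 8.98%. These 4 comparisons and that of volasertib share the DMSO wells.

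**Figure D1:**
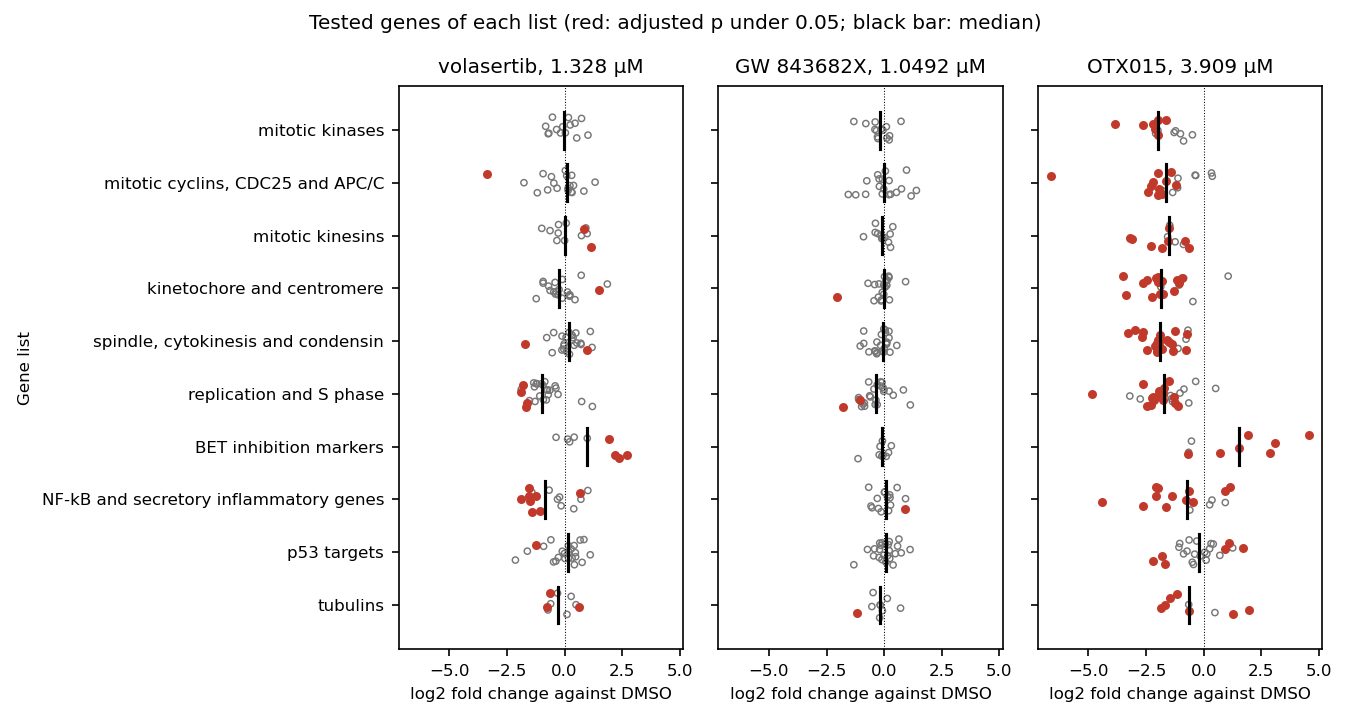
Log2 fold change against DMSO (horizontal axis) of every tested gene of 10 lists (rows) for volasertib, GW 843682X and OTX015 (2 wells each, 4 DMSO wells), with red points for an adjusted p under 0.05 and black bars for medians. With volasertib the mitotic lists center near 0, the replication and S phase list on -0.97, the BET inhibition markers on 0.98 and the NF-kB and secretory list on -0.87.

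Genes of DNA replication and S phase were lower with volasertib. Of 26 tested members 24 had a negative log2 fold change, 4 fell, and 0 rose, a share of 15.4% called beside 4.70% of all genes, with a median of -0.97. In bulk wells, fewer cells in S phase and less RNA per cell cannot be told apart. MCM5 (GRCh37 chr22:35796127-35821424), a subunit of the replicative helicase, was at 45.8 and 40.4 CPM against 204, 147.3, 150.2 and 130.1 CPM in DMSO, and fell by 1.68 ± 0.26 (adjusted p = 1.35e-05). RRM2, the small subunit of ribonucleotide reductase, was at 127.1 and 27.9 CPM against 302, 338, 154.7 and 214 CPM and fell by 1.61 ± 0.25 (adjusted p = 1.41e-05). E2F1 (GRCh37 chr20:32263283-32274191) was at 41.7 and 34.8 CPM against 155.3, 152.96, 259 and 98.8 CPM and fell by 1.88 ± 0.31 (adjusted p = 4.29e-05). In all 3 genes the volasertib wells lay below every DMSO well, as for 11.3% of all genes. MCM10, a replication initiation factor, was at 10.4 and 8.36 CPM against 34.9 to 38.8 CPM and fell by 1.81 ± 0.54 (adjusted p = 0.0360), and its call held in 6 of 14 alternatives, being lost on leaving out either volasertib well or any of 3 DMSO wells, with UNTREATED wells as the control and under voom. The list had a median of -0.37 with GW 843682X, -0.80 with Vindesine sulphate, -0.73 with Plinabulin and -1.74 with OTX015.

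Histone genes of the BET inhibition list rose with volasertib. Of 9 tested members, 4 rose and 0 fell, 44.4% beside 4.70% of all genes, and the median log2 fold change was 0.98. HIST1H1C (GRCh37 chr6:26055968-26056698), a linker histone with a polyadenylated transcript, was at 263 CPM on both plates against 58.2, 55.2, 58.0 and 65.0 CPM in DMSO. Its rise was 5.09-fold (log2 fold change 2.35 ± 0.21, adjusted p = 6.76e-12). The H2B gene HIST1H2BK was at 115.6 and 78.0 CPM against 20.8 to 37.5 CPM and rose 3.76-fold (1.91 ± 0.31, adjusted p = 2.29e-05). HIST2H2BE was at 71.9 and 29.3 CPM against 25.9, 8.50, 8.92 and 6.25 CPM (2.17 ± 0.37, adjusted p = 5.94e-05). HIST1H2BD was at 31.2 and 15.3 CPM against 1.29 to 7.44 CPM (2.71 ± 0.69, adjusted p = 0.0115), a call that was lost on leaving out either volasertib well or the first DMSO well of plate A. In all 4 the volasertib wells were above every DMSO well. H2B genes are near-identical copies, so reads between them are uncertain.

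HEXIM1, the inhibitor of the elongation factor P-TEFb, was at 63.5 and 34.8 CPM with volasertib against 18.1, 35.4, 25.3 and 28.8 CPM in DMSO. Its log2 fold change of 0.98 ± 0.39 did not pass (adjusted p = 0.154, 95% interval 0.20 to 1.76), although it was called against the UNTREATED wells. MYC differed by -0.37 ± 0.44 on the log2 scale (adjusted p = 0.745). With OTX015 the same list had 6 higher and 1 lower of 9, with HIST1H1C at 388 and 279 CPM and HEXIM1 at 101.4 and 31.6 CPM (1.51, adjusted p = 0.00308). With GW 843682X 0 of 9 were called, and HIST1H1C was at 68.2 and 39.8 CPM. Vindesine sulphate also had 4 higher, with HIST1H1C at 183.3 and 232 CPM. Of all genes, OTX015 raised 8.03% and lowered 8.98%, GW 843682X changed 0.838% and Vindesine sulphate raised 1.26%. The 0 of 9 with GW 843682X is near its share of all genes.

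Inflammatory cytokine genes fell with volasertib. Of 16 tested members of the NF-kB and secretory list 7 fell and 1 rose, 50.0% beside 4.70% of all genes, with a median of -0.87. CCL2 (GRCh37 chr17:32582293-32584227), a monocyte chemokine, was at 35.4 and 33.4 CPM against 85.4, 158.6, 172.5 and 186.3 CPM in DMSO and fell by 1.91 ± 0.29 (adjusted p = 6.07e-06). Both wells lay below every DMSO well, and CCL2 ranked 3 from the bottom of 92 compound wells on plate A and 1 on plate B. IL1B was at 682 CPM on plate A against 1423 and 1435 CPM, and at 213 CPM on plate B against 583 and 657 CPM, and fell by 1.07 ± 0.16 (adjusted p = 6.07e-06). IL8 was at 191.6 CPM against 474 and 608 CPM on plate A and at 55.7 CPM against 127.9 and 143.8 CPM on plate B (-1.23 ± 0.23, adjusted p = 3.86e-04). LIF, a cytokine of the IL6 family, fell by 1.53 ± 0.33 (adjusted p = 0.00175), and the other 3 that fell were CXCL2, CXCL3 and IL1A (by 1.55, 1.40 and 1.50), named after their values were seen. IGFBP3, an insulin-like growth factor binding protein, was the member that rose (0.66 ± 0.16, adjusted p = 0.00567), but UNTREATED wells were also higher than DMSO wells for it (0.82, adjusted p = 9.32e-05). The calls of IL8 and IGFBP3 were lost without the plate A well of volasertib, that of LIF on leaving out either well, and that of IGFBP3 also with UNTREATED wells as the control. With OTX015 this list had 10 lower and 2 higher, with GW 843682X 0 lower and 1 higher, with Vindesine sulphate 0 lower and 4 higher, and with Plinabulin 3 lower and 2 higher. UNTREATED wells had 3 higher and 0 lower against DMSO. Beside these counts, the shares of all genes lower and higher were 8.98% and 8.03% with OTX015 and 0.396% and 0.442% with GW 843682X. They were 1.06% and 1.26% with Vindesine sulphate, 2.22% and 2.71% with Plinabulin and 0.351% and 0.725% in UNTREATED wells.

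Calls in the p53 target and BCL2 family lists did not exceed the share over all genes. CDKN1A, the p53-induced inhibitor of cyclin-dependent kinases, was at 961 and 841 CPM against 780, 867, 695 and 738 CPM (0.42 ± 0.14, adjusted p = 0.0577). MDM2, the p53 ubiquitin ligase, differed by 0.41 ± 0.33 on the log2 scale (adjusted p = 0.591). Of 24 p53 target genes tested 1 was called (4.17% beside 4.70% of all genes), with 14 above and 10 below a log2 fold change of 0. The called gene was the death receptor gene FAS. It fell from 75.1 to 142.8 CPM in DMSO to 36.4 and 36.2 CPM (-1.22 ± 0.27, adjusted p = 0.00294), a call lost without the plate B well of volasertib. None of 6 BCL2 family genes tested was called, and so short a list cannot show a lack of change at that share. All 6 had a log2 fold change below 0, with a median of -0.27. Their 2 highest members, the anti-apoptotic BCL2L1 and the BH3-only BID, differed by -0.47 ± 0.26 and -0.37 ± 0.27 on the log2 scale, with an adjusted p of 0.378 and 0.533.

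Of 11 integrated stress response genes 2 rose (18.2% beside 4.70% of all genes), the mTORC1 inhibitor gene DDIT4 (1039 and 508 CPM against 274 to 487 CPM, 1.24 ± 0.16, adjusted p = 1.23e-07) and the glutathione-degrading CHAC1 (1.97 ± 0.49, adjusted p = 0.00830), whose call was lost on leaving out either volasertib well. DDIT4 was lower in UNTREATED than in DMSO wells (-0.54, adjusted p = 0.0382). Of 9 tubulin genes tested 3 were called (33.3% beside 4.70%). TUBA1B and TUBB6 fell by 0.63 ± 0.09 and 0.76 ± 0.16 (adjusted p = 4.09e-06 and 9.96e-04) and the neuronal TUBB3 rose by 0.62 ± 0.17 (adjusted p = 0.0201). The call of TUBB6 was lost without the plate B well and that of TUBB3 on leaving out either well or 1 DMSO well of plate B. Vindesine sulphate and Plinabulin each had 7 lower tubulin genes of 9 and 0 higher, and OTX015 had 5 lower and 2 higher. Of all genes, Vindesine sulphate lowered 1.06%, Plinabulin 2.22% and OTX015 8.98%, and OTX015 raised 8.03%. Drugs that depolymerize microtubules are known to lower tubulin mRNA. None of 12 YAP targets, 10 immediate early genes and 9 cholesterol synthesis genes was called, beside 4.70% of all genes. At that share, lists this short cannot show a lack of change. Their most abundant members were NT5E (-0.11) and AXL (-0.18), KLF6 (-0.44) and JUN (-0.31), and INSIG1 (0.42) and FDFT1 (0.27), on the log2 fold scale with adjusted p from 0.189 to 0.833.

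The largest rises among called genes, at a mean of at least 20 CPM and with both wells above all DMSO wells, were led by PEG10 (GRCh37 chr7:94285637-94299007), an imprinted gene derived from a retrotransposon. PEG10 was at 1915 and 1803 CPM against 214, 234, 238 and 209 CPM in DMSO, a 9.55-fold rise (3.26 ± 0.12, adjusted p = 1.59e-26). UNTREATED wells were at 367 to 427 CPM, themselves above DMSO by 0.95 (adjusted p = 1.59e-07). SQSTM1, which encodes the autophagy receptor p62, was at 1629 and 805 CPM against 448, 408, 113.03 and 146.3 CPM, a 5.60-fold rise (2.49 ± 0.15, adjusted p = 5.73e-18). GTF2F2, the RAP30 subunit of TFIIF, rose 6.92-fold to 135.4 and 185.3 CPM from 19.3 to 42.5 CPM (adjusted p = 2.12e-08). The metallothionein gene MT2A, the most abundant symbol, was at 71497 and 172006 CPM against 19232 to 38983 CPM (2.24 ± 0.30, adjusted p = 0.00135). UNTREATED wells were higher than DMSO wells for MT2A as well (1.34, adjusted p = 0.0407), and its call was lost with UNTREATED wells as the control. The histone acetyltransferase gene HAT1 (2.24), the reductase gene DHRS2 (2.83) and the ubiquitin-conjugating UBE2Q1 (2.11) completed the 10 with the 3 histone genes HIST1H2BD, HIST1H1C and HIST2H2BE. The calls of DHRS2 and HAT1 were lost on leaving out either volasertib well or the second DMSO well of plate A and with UNTREATED wells as the control, and that of DHRS2 also without the first DMSO well.

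**Figure D2:**
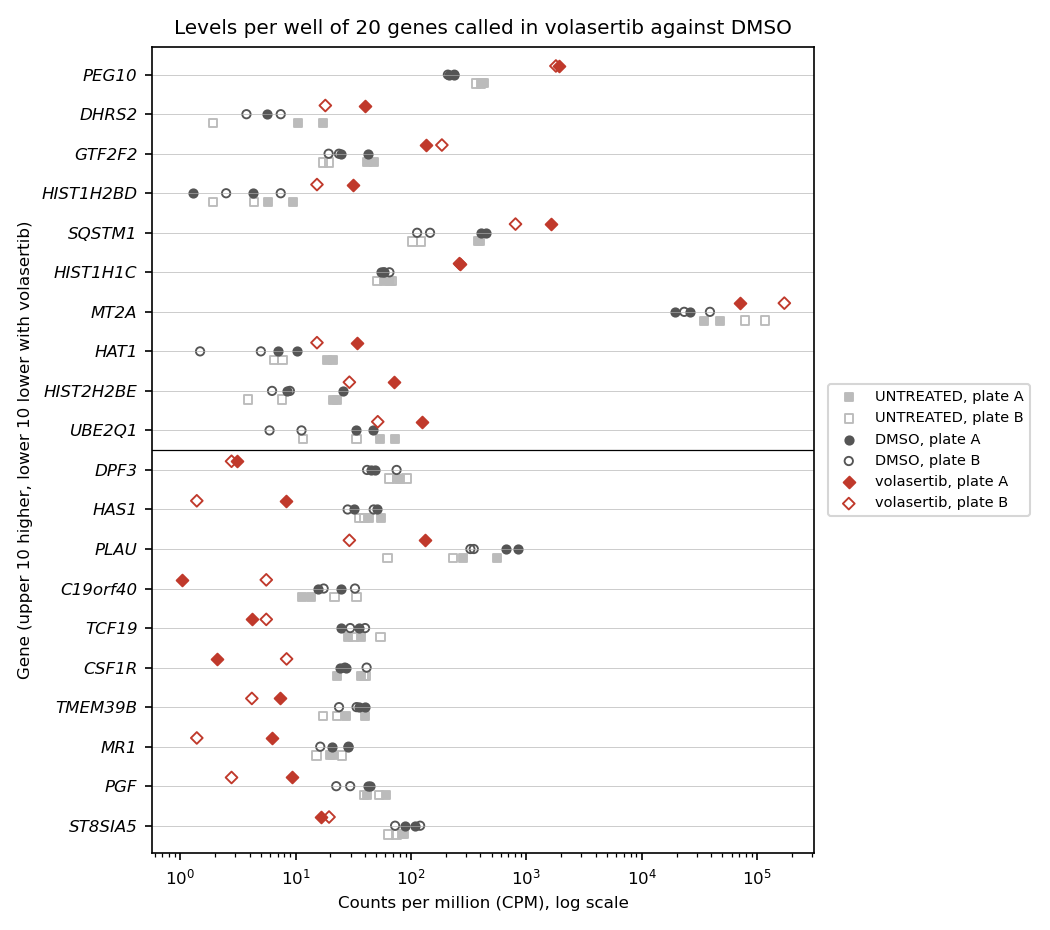
CPM on a log axis (horizontal) in each volasertib, DMSO and UNTREATED well for the 10 higher and 10 lower genes of volasertib against DMSO named by the rule, with filled points for plate A and open points for plate B. The red volasertib points lie outside the DMSO points of every gene, as the rule required.

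Among called genes with a mean of at least 20 CPM in DMSO and both volasertib wells below all DMSO wells, DPF3 (GRCh37 chr14:73075742-73360809), a subunit of the BAF chromatin remodeling complex, had the lowest log2 fold change. It was at 3.12 and 2.79 CPM against 49.2, 45.3, 41.6 and 75.0 CPM in DMSO (-3.87 ± 0.53, adjusted p = 6.70e-07). HAS1, a hyaluronan synthase, was at 8.33 and 1.39 CPM against 28.3 to 51.0 CPM (-2.80 ± 0.57, adjusted p = 0.00121), and was the lowest of the 92 compound wells on plate A. ST8SIA5, a ganglioside sialyltransferase, was at 16.7 and 19.5 CPM against 72.9 to 120.1 CPM (-2.25 ± 0.37, adjusted p = 3.04e-05). PLAU, the urokinase plasminogen activator, was at 131.2 and 29.3 CPM against 327 to 850 CPM (-2.67 ± 0.52, adjusted p = 0.0145), a call lost against UNTREATED wells, which ranged from 62.8 to 555 CPM. PGF, a growth factor of the VEGF family, and CSF1R, the receptor of macrophage colony-stimulating factor, fell by 2.25 and 2.39. TCF19, C19orf40 (FAAP24, of the Fanconi anemia pathway), TMEM39B and the antigen-presenting MR1 fell by 2.34 to 2.63. The calls of PLAU, C19orf40, TCF19, TMEM39B and MR1 were lost on leaving out either volasertib well, and those of HAS1, PGF and CSF1R on leaving out 1 of them. That of MR1 was also lost with UNTREATED wells as the control and without any of 3 DMSO wells, and that of C19orf40 without either of 2 DMSO wells.

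The same 20 genes were read in the other compounds at their own doses, against the shared DMSO wells. With OTX015, 16 of the 20 were called, with PEG10 at 6663 and 4605 CPM, SQSTM1 at 2187 and 676 CPM, DPF3 at 6.12 and 6.65 CPM and PLAU at 55.1 and 46.5 CPM. HAT1, UBE2Q1, HAS1 and MR1 were not. HAS1 was at 40.2 and 41.5 CPM with OTX015, within the DMSO range, against 8.33 and 1.39 CPM with volasertib. With GW 843682X, PEG10 was at 444 and 419 CPM, SQSTM1 at 420 and 137.5 CPM, DPF3 at 28.5 and 56.3 CPM, and PLAU at 583 and 287 CPM. With GW 843682X 2 of the 20 were called, PEG10 and MT2A, and both also differed between UNTREATED and DMSO wells. Vindesine sulphate and Plinabulin had 6 called each.

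**Figure D3:**
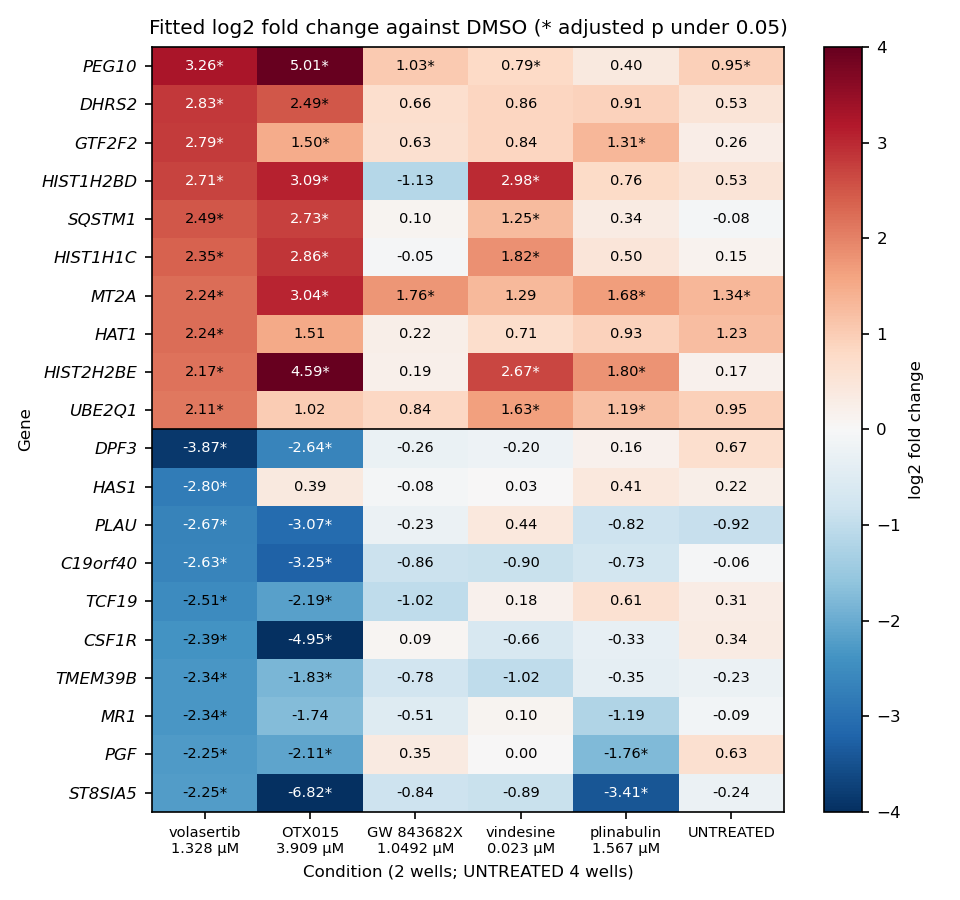
Fitted log2 fold change against the 4 DMSO wells (color and printed value, asterisk for an adjusted p under 0.05) of the 20 named genes (rows) in 5 compounds at the doses shown and in UNTREATED wells (columns). Volasertib carries an asterisk at every gene, by the rule, OTX015 at 16 and GW 843682X at PEG10 and MT2A. Values beyond -4 or 4 share the end colors.

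The second question was how volasertib differed from the other compounds of its plates. Against the wells of the other 91 compounds on both plates, 13 genes were higher and 8 lower of 10818 tested (0.194%, with 0.120% higher and 0.0740% lower, edgeR quasi-likelihood test over every well of both plates with a plate term). The balance of directions depended on the method, with 12 higher and 12 lower under RLE normalization, 25 and 7 with no filter on low counts, and 17 and 46 under DESeq2. These calls rest on both wells, since leaving out the plate A or the plate B well left 1 and 0 calls. CPNE3, a calcium-dependent membrane-binding copine, had the smallest p, with 524 and 577 CPM against medians of 227 and 177.4 CPM in the other compounds of plate A and B. It rose by 1.51 ± 0.26 (adjusted p = 1.88e-04) and ranked 2 and 1 of 92. DCXR, a carbonyl reductase of xylulose metabolism, was at 294 and 382 CPM against medians of 123.5 and 158.6 CPM (1.33 ± 0.23, adjusted p = 1.88e-04) and ranked 2 on both plates. HIST1H1C, HIST1H2BK and SQSTM1 were higher by 2.00 ± 0.37, 1.98 ± 0.38 and 1.85 ± 0.36 (adjusted p = 6.48e-04, 0.00138 and 0.00171). All 5 were within the top 3 wells on both plates. OTX015 wells had CPNE3 at 607 and 332 CPM, DCXR at 353 and 497 CPM and HIST1H1C at 388 and 279 CPM. In the same wells HIST1H2BK was at 80.4 and 88.1 CPM and SQSTM1 at 2187 and 676 CPM. All 5 were also called higher with OTX015 against DMSO, so they do not set volasertib apart from it. Not every gene called against the other compounds was called with OTX015 against DMSO. URI1 and CLIC4, named after their values were seen, were higher by 1.40 and 1.26, and HAS1 was lower by 2.90. With OTX015 against DMSO these 3 differed by 0.92, 0.66 and 0.39 on the log2 scale (edgeR adjusted p = 0.0630, 0.138 and 0.586).

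Among the lower genes, DPF3 fell by 3.58 ± 0.74 (adjusted p = 0.00407) from medians of 38.7 and 39.9 CPM. CNN2 and TGFB1I1, an actin-binding calponin and a focal adhesion protein, fell by 1.46 ± 0.33 and 1.43 ± 0.33 (adjusted p = 0.0149 and 0.0229). ALDH1A3 (GRCh37 chr15:101417919-101456831), an aldehyde dehydrogenase of retinoic acid synthesis, was at 219 and 212 CPM against medians of 892 and 946 CPM (-1.94 ± 0.46, adjusted p = 0.0300). In DMSO it was at 879 to 1089 CPM. ICAM3, an adhesion molecule, was at 7.29 and 6.97 CPM against medians of 21.2 and 46.8 CPM (-1.93 ± 0.46, adjusted p = 0.0300). DPF3, CNN2, TGFB1I1 and ALDH1A3 were within the lowest 4 wells on both plates. With OTX015, DPF3 was at 6.12 and 6.65 CPM, CNN2 at 37.6 and 24.9 CPM and TGFB1I1 at 34.1 and 43.2 CPM. ALDH1A3 was at 196 and 264 CPM and ICAM3 at 1.75 and 6.65 CPM in the same wells. Each of these genes was also called lower with OTX015 against DMSO. Against the other compounds, PLK1 and CCNB1 differed with volasertib by -0.05 ± 0.49 and 0.38 ± 0.38 on the log2 scale (adjusted p = 0.997 and 0.851).

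**Figure D4:**
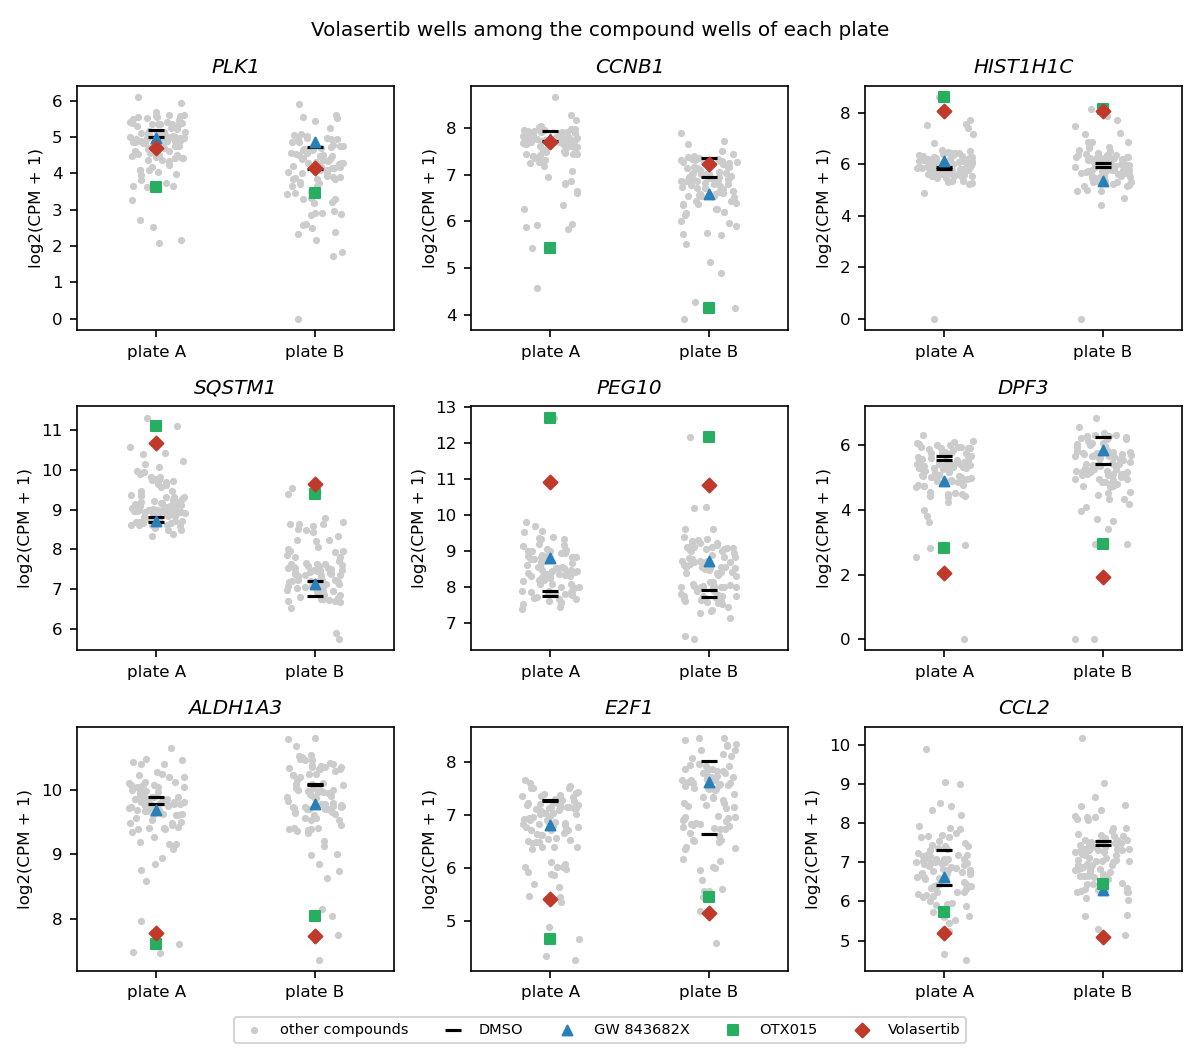
Level on the log2(CPM + 1) scale (vertical) in each compound and DMSO well of plates A and B (horizontal) for 9 genes, with volasertib, GW 843682X, OTX015 and DMSO marked and the other compounds in gray. Volasertib lies within the other compounds for PLK1 and CCNB1, near the upper end for HIST1H1C, SQSTM1 and PEG10 and near the lower end for DPF3, ALDH1A3, E2F1 and CCL2.

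Likeness of whole profiles was described across plates, which share no well. Each compound well was expressed as log2 CPM minus the median over the compound wells of its plate, over 5638 genes with a mean of at least 20 CPM, and a volasertib well was correlated with every compound well of the other plate. The 2 volasertib wells had a Pearson r of 0.482 with each other, against a median of 0.294 for the 2 wells of a compound, and ranked first of 92 in both directions. OTX015 was next, at r = 0.375 and 0.380 (rank 2 of 92 in both directions). Resminostat, an inhibitor of histone deacetylases, had rank 3 at 0.165 and 0.145. The other PLK1 inhibitor GW 843682X was at -0.044 and -0.030 (ranks 69 and 72). Vindesine sulphate was at 0.042 and 0.051 (ranks 18 and 12) and Plinabulin at 0.032 and 0.046 (ranks 21 and 17). The median over the other 91 compounds was -0.011 and -0.0057. The 2 wells of GW 843682X had an r of 0.225 with each other, rank 78 among such pairs of the 92 compounds. This r was 0.654 for OTX015, 0.393 for Vindesine sulphate and 0.504 for Plinabulin. With its own wells so little alike, the low r of GW 843682X with volasertib does not show that PLK1 inhibition gives an unlike profile. Whether GW 843682X blocked PLK1 at this dose was not tested. Points are genes of the same libraries and not independent, wells of 1 compound share a plate position, and total counts of the OTX015 wells were 1143854 and 601897.

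**Figure D5:**
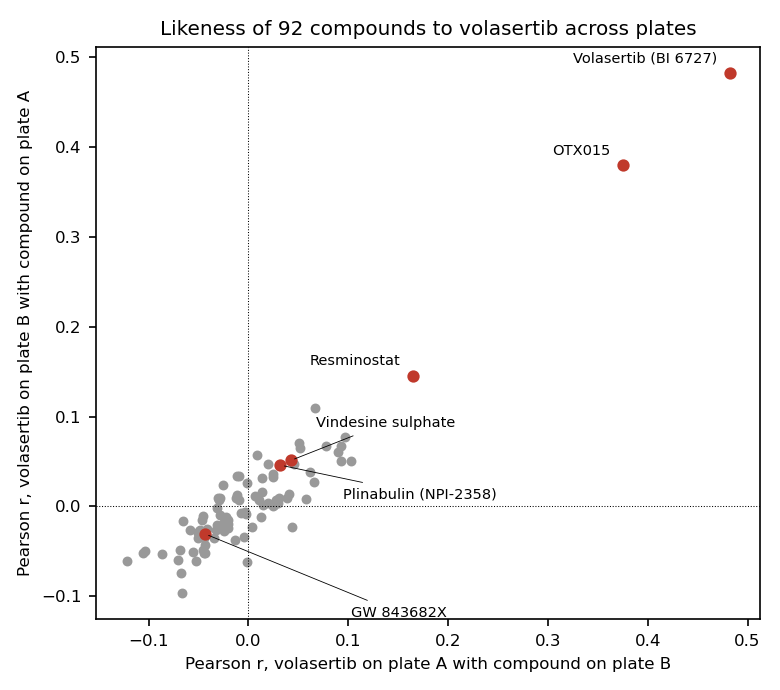
Pearson r over 5638 genes of the volasertib well of plate A with each compound well of plate B (horizontal) and of the volasertib well of plate B with each compound well of plate A (vertical), 1 point per compound. Volasertib itself is at 0.482, OTX015 at 0.375 and 0.380, and GW 843682X at -0.044 and -0.030.

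Shared genes were counted with separate controls, volasertib against DMSO wells and the other compounds against UNTREATED wells, a choice made after seeing the data. Of the 211 genes that rose with volasertib, 58.3% also rose with OTX015, and these made up 18.2% of the 674 OTX015 genes, where OTX015 raised 7.63% of all genes. Of the 204 that fell, 69.6% also fell with OTX015, and these made up 16.4% of the 865 OTX015 genes, where 9.80% of all genes fell. OTX015 moved 9 of the higher and 0 of the lower genes the opposite way. For GW 843682X these counts were 5 and 0, for Vindesine sulphate 6 and 4, and for Plinabulin 13 and 3. With GW 843682X, 1 of the higher and 8 of the lower genes were shared, 0.474% and 3.92% of the volasertib genes and 8.33% and 22.9% of its own 12 and 35 genes, where it raised 0.136% and lowered 0.396% of all genes. Vindesine sulphate shared 9.48% of the higher and 14.7% of the lower volasertib genes, which were 23.3% and 26.8% of its own, where it raised 0.974% and lowered 1.27% of all genes. Plinabulin shared 11.4% and 16.2%, which were 12.4% and 14.7% of its own, where it raised 2.20% and lowered 2.55%.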

How the data were processed

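PLATE-Seq counts of 2 U87 plates were used. The deposited values are raw counts per gene symbol and well, which the authors made by demultiplexing well barcodes, aligning with BWA (version not given in the sources used here) to hg19 known genes and counting uniquely mapped sense reads without molecular identifiers. According to the study's methods, lysates of several source wells were pooled into each well. The other 6 tables were not used.

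Of 23710 symbols, 92 spike-ins having been left out, those passing filterByExpr entered glmQLFTest (edgeR 4.0.16 under R 4.3.3, TMM scaling, robust dispersion). One fit held 18 wells of 7 conditions with a plate term (8831 genes, 10 residual degrees of freedom, so that all conditions share 1 estimate of the spread), and another held every well of both plates (10818 genes). The biological coefficients of variation were 0.212 and 0.322. Genes with a Benjamini-Hochberg adjusted p under 0.05, two-sided, were called. Volasertib replicate 1 is the plate A well and replicate 2 the plate B well. DMSO replicates 1 and 2 stood on plate A.

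The plate letter pairs wells as a label of the plate. The plate difference of each condition correlated with that of DMSO over 8831 genes (r from 0.441 to 0.596). No pair of duplicate wells agreed within counting noise (chi-square per degree of freedom from 3.37 to 7.47 within a plate and up to 25.3 across plates), so none was merged as 1 library deposited again. The check does not show that wells are separate cultures.

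Named genes were PLK1 and CCNB1, the 10 highest and 10 lowest log2 fold changes among called genes against DMSO (mean of at least 20 CPM in the higher group, both wells beyond all DMSO wells), the 5 with the smallest p in each direction against other compounds, the called members of each list (up to 5 by p, or the 2 most abundant where none was called), and CDKN1A, MDM2, HEXIM1 and MYC. The members and gene lists were chosen with earlier results of these data known. Results of some genes of these lists are not reported here. Scripts were tested on simulated data. Alternatives were RLE scaling, no filter, no plate term, other controls, DESeq2 1.42.0, voom of limma 3.58.1 and leaving out each replicate. The UNTREATED controls were chosen after seeing the data. Coordinates are GRCh37 for genes and GRCh38.p14 for the RefSeq promoter windows.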

Additional observations from a re-analysis of the deposited data

Results flagged for a closer look

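The 4 wells of each control were screened, gene by gene over the named genes and for total counts, for a well far from the other 3, which chance flags in about 1 set of 20. HIST2H2BE stood at 25.9 CPM in the first DMSO well of plate A and at 6.25, 8.50 and 8.92 CPM in the others. MYBL2 stood at 21.5 CPM in 1 UNTREATED well and at 8.69, 9.50 and 10.6 CPM in the others.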

How the results depend on the processing

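Counts are given here as genes and as a percentage of the genes of the reported fit (8831 against DMSO, 10818 against other compounds). The 415 genes against DMSO (4.70%) stayed within 1.5 times under RLE scaling (411), no filter (433), only volasertib and DMSO wells (369), both controls together (422), UNTREATED wells as control (498), DESeq2 (420) and voom (514), and without single wells the share ran from 1.49% to 4.12%. Without the plate as a replicate block it was 0.159%, with 705 genes at an unadjusted p under 0.05. In that fit OTX015 had 4.31%, Plinabulin 0.294%, Vindesine sulphate 0.0906%, and GW 843682X and UNTREATED 0 by edgeR (396 and 335 at an unadjusted p under 0.05). The 21 genes against other compounds (0.194%) became 0.0370% without the block, 0.296% with no filter, 0.582% with DESeq2 (63 genes) and 0 to 0.00924% without a volasertib well (0 genes without the plate B well and 1 without the plate A well, by edgeR, with 358 and 784 at an unadjusted p under 0.05). The cause was not tested. Of 49 called named genes, 22 kept their call without either volasertib well and 9 under every alternative (PEG10, GTF2F2, HIST1H1C, DPF3, ST8SIA5, CPNE3, HIST1H2BK, CNN2 and ALDH1A3).

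Among named genes, signs turned for IGFBP3 and for genes that were not called. With UNTREATED wells as control IGFBP3 was at -0.16 and MYC at 0.33. Leaving out single wells moved CCNB1 from -0.068 to 0.38, NT5E from -0.36 to 0.055 and FDFT1 from -0.28 to 0.63 against DMSO. Against other compounds it moved PLK1 from -0.11 to 0.028, BID from -0.30 to 0.096, FDFT1 from -0.11 to 0.56, NT5E from -0.23 to 0.16 and MYC from -0.034 to 0.24, and NT5E was at 0.054 without the block.

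Over 1689 genes of at least 100 CPM, r was 0.748 between the volasertib wells, 0.547 and 0.545 with OTX015, -0.084 and -0.043 with GW 843682X, 0.058 and 0.082 with Vindesine sulphate and 0.017 and 0.066 with Plinabulin. With a prior count of 5, it was 0.514 between the volasertib wells, 0.388 and 0.401 with OTX015 and 0.051 and 0.062 with Vindesine sulphate. The depth of 960248 and 717852 counts leaves genes of few reads, such as MYBL2, imprecise.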

Other observations

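A further 7 abundant genes that rose with volasertib were chosen after their values were seen and stand for no tested group. The metallothionein gene MT1X was at 643 and 130.9 CPM against 163.1, 92.1, 69.9 and 20.0 CPM in DMSO (log2 fold change 2.20 ± 0.26, SE), above both DMSO wells of its own plate each time. MT1G and MT1E rose by 1.57 ± 0.22 and 0.91 ± 0.14. The ferritin heavy chain gene FTH1 was at 2522 and 1080 CPM against 983, 1032, 416 and 555 CPM (1.44 ± 0.13), and the light chain gene FTL rose by 1.07 ± 0.14. TIMP1, an inhibitor of metalloproteinases, rose by 1.44 ± 0.12, and the glycolytic GAPDH by 1.012 ± 0.10, from 7585 to 10652 CPM in DMSO to 18320 and 13370 CPM. All 7 were called by edgeR. GAPDH is often used as a constant reference, and here it ranked second of 92 compound wells on both plates. With OTX015 the log2 fold changes of MT1X, MT1G, MT1E, FTH1, FTL, TIMP1 and GAPDH were 2.59, 1.67, 1.72, 1.55, 2.32, 1.74 and 1.48. With GW 843682X they were 0.04, 0.45, 0.38, -0.09, 0.43, 0.05 and 0.20, none of them called. Vindesine sulphate raised MT1G by 1.57 (edgeR adjusted p = 2.90e-06), as much as volasertib did, and TIMP1 by 0.46 (adjusted p = 0.0387). None of the 7 was called with Plinabulin.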
